A study of Mus musculus with 4 samples.

Results

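Semaphorins, ephrins, netrins and slits are cell-surface or secreted cues first known for steering growing axons. Genes of these families and of their receptors were chosen by symbol, as every non-control probe of the array annotated to a semaphorin, plexin, neuropilin, Eph receptor, ephrin, netrin, Unc5, slit or robo gene. The rule took 121 of 41174 probes and 69 of 28146 gene names. Of these, Unc50 and Unc5cl share only the letters of their symbols with the netrin receptors of the Unc5 family and are counted apart.

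RNA came from EPH-4 cells, a non-malignant mouse mammary epithelial line, stably transfected and selected in 2 µg/mL puromycin. The line EV-50 carries the empty H1-2 vector and the line shGR-19 an shRNA vector against the glucocorticoid receptor (GR), with a GR status labelled as depleted to under 50%. Both lines were grown without serum and without added glucocorticoid, so that GR was studied without its hormone, and the comparison asked which transcripts depend on the unliganded receptor. Each line is 1 clone with 2 Agilent Whole Mouse Genome arrays of 300 ng Cy3-labelled RNA, described as duplicates of a sample. The p-values therefore measure the spread between these arrays, or between their columns of deposited values, and not that between clones. Differences between clones cannot be told apart from GR depletion.

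Class 3 semaphorins are secreted and act through neuropilins and plexins, while most other semaphorins are held in the membrane and bind plexins directly. Ephrins sit on 1 cell and Eph receptor kinases on its neighbour, with ephrin-A proteins on a lipid anchor and ephrin-B proteins spanning the membrane, and each partner can signal into its own cell. Netrins bind Dcc, neogenin and Unc5 receptors and slits bind robo receptors, and in the mammary gland netrin-1, slit and EphB4 with ephrin-B2 are known for parts in duct shape and adhesion.

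The probes are 60 bases long, and the sequences of those behind the Efna1, Efna4, Efnb1, Robo3, Sema4a and Sema3e results follow. They are examples of called genes and, for Sema3e, of probes that did not read alike. Some called genes not printed had larger changes than Efna1 and Efna4. The first 30 bases of each are given 5′ to 3′, as the scanner files list them, with the mm9 position and strand of the file's annotation. The annotation does not state whether a probe lies in a coding exon or an untranslated region.
Efna1 at chr3:89076171-89076230, minus strand: gatggagaaagaagtggagaaggtccttaa
Efna4 at chr3:89138180-89138239, minus strand: aatcctccgtctcctgagagttctgtgagc
Efnb1 at chrX:96343505-96343564, plus strand: ttttggaccctcatgagacaatgctgttcc
Sema4a at chr3:88240065-88240123, minus strand: ggccatactgtttgggaagtcatctctgaa
Robo3, first probe, at chr9:37223630-37223649, minus strand: aatgatgcttgtgactcactgaagcacact
Robo3, second probe, at chr9:37223760-37223819, minus strand: cggttttagttgtcttgggaatcagagaac
Sema3e, brightest probe, at chr5:14254023-14254082, plus strand: atgatttttatgaggcttttcagttcggta
Sema3e, second probe, at chr5:14256431-14256490, plus strand: tctgactagatactggagtgtctttgtctc
Sema3e, dimmest kept probe, at chr5:14232200-14233666, plus strand: tcttatttattgggacagacacaggaattg
Sema3e, probe read on no array, at chr5:14236745-14236804, plus strand: gtgatcgtaaggtaagcattcatacgtgaa
The annotated spans of the Sema4a probe, of the first Robo3 probe and of the dimmest kept Sema3e probe are not 60 bases long. The Robo3 probes share a run of 20 bases and so are not separate looks at the gene, whereas no kept probes of different guidance genes shared a run over 11 bases.

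The same samples are held in a pair of sources. From the scanner files, each level is log2 of the processed signal less that of the array's 75th percentile. A probe was kept where 1 or both lines had it well above background on both of their arrays, which 24443 probes passed. The deposited value table holds log2 values centred on the median of each probe, so that its columns show differences and not levels. The sources disagreed on replicate 1. Over the 57 guidance probes read on every array, the scanner difference between the lines had a log2 SD of 0.220 for replicate 1 and 0.759 for replicate 2. Over all probes read on every array these were 0.225 and 0.513. Within a line, the same 57 probes differed between its scanner arrays with an SD of 0.867 in EV-50 and 1.06 in shGR-19. Between the table columns of a line, the 70 kept guidance probes differed with an SD of 0.527 in EV-50 and 0.266 in shGR-19. Standard errors and p-values from the table rest on the spread of its columns and not on that of the scanner arrays. Every result is therefore given from both sources and by replicate number.

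Nr3c1, which encodes GR, checked the labels. Its brightest probe had scanner levels of 1.81 and 1.92 for EV-50 and of 1.46 and -0.034 for shGR-19, so that the array labelled shGR-19 replicate 1 lay near the EV-50 arrays. Whether the replicate 1 scanner files hold the samples of their labels was not tested, and every scanner difference, error and count here rests on those labels. The scanner difference was -1.15 ± 0.55 (SE, log2 scale, limma adjusted p = 1.00), and in the table it was -1.94 ± 0.048 (adjusted p = 0.00216). Of 6 luminal epithelial markers 4 were well above background on all 4 arrays and Elf5 was on none, and all 4 basal markers were on all 4. The basal markers summed to 69.6 and 173 for EV-50 and to 71.6 and 85 for shGR-19 on the linear scale, and of these Krt14 was lower in the table, by -1.13 ± 0.049 (adjusted p = 0.00332). Of endothelial markers 0 of 4 were on all 4 arrays and Pecam1 and Cdh5 were on none. Of immune markers Cd3e and Cd68 were on all 4 and Ptprc and Itgam on none. Only 2 of 4 listed neuron markers had a probe, with Tubb3 on all 4 arrays and Snap25 on none. Of fat cell markers Fabp4 was on all 4 and Adipoq on none. The 5 fibroblast markers had a summed linear level of 1.77 and 3.1 for EV-50 and of 1.62 and 34.3 for shGR-19, with the high value in replicate 2. On that array Col1a2 read 4.93 and Col1a1 1.92 on the log2 scale, against -2.83 for Pdgfra and -6.60 for Thy1. Of the 5 markers, Col1a2 (log2 fold change 3.27 ± 0.046) and Pdgfra (1.16 ± 0.058) passed an adjusted p of 0.01 in the table. Pdgfra had passed the filter only through shGR-19, the line in which it was higher. Dcn was on no array, and Col1a1 and Thy1 did not pass the filter. The part of these markers in the results below was not tested, and in bulk RNA more cells with a transcript and more of it per cell cannot be told apart.

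Most guidance families were read in EPH-4 cells, though not every member. Of the 69 genes, 41 had a probe well above background on all 4 arrays and 14 had none on any array, and 49 genes with 70 probes passed the filter. All 3 ephrin-B genes and 3 of 4 ephrin-A genes were on all 4 arrays, as were both neuropilins, 9 of 13 membrane semaphorins and 5 of 7 secreted semaphorins. Of the 14 Eph receptors 7 were on all 4 arrays and 4 were on none, namely Epha6, Epha8, Epha10 and Ephb1. Of the slits, Slit1 and Slit2 were on all 4 arrays and Slit3 on none, and of the robo family Robo3 was on all 4 and Robo2 on none. Ntn1, Ntn3, Ntn5 and the receptor Unc5b were on all 4, and Unc5c and Unc5d on none. The other genes on no array were Efna2, Ntn4, Plxnc1, Sema4f, Sema4g and Unc5cl. Epha5, Robo1, Sema3d, Sema6d, Sema7a and Unc5a were well above background on 1 or 2 arrays but did not pass the filter.

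**Figure D1:**
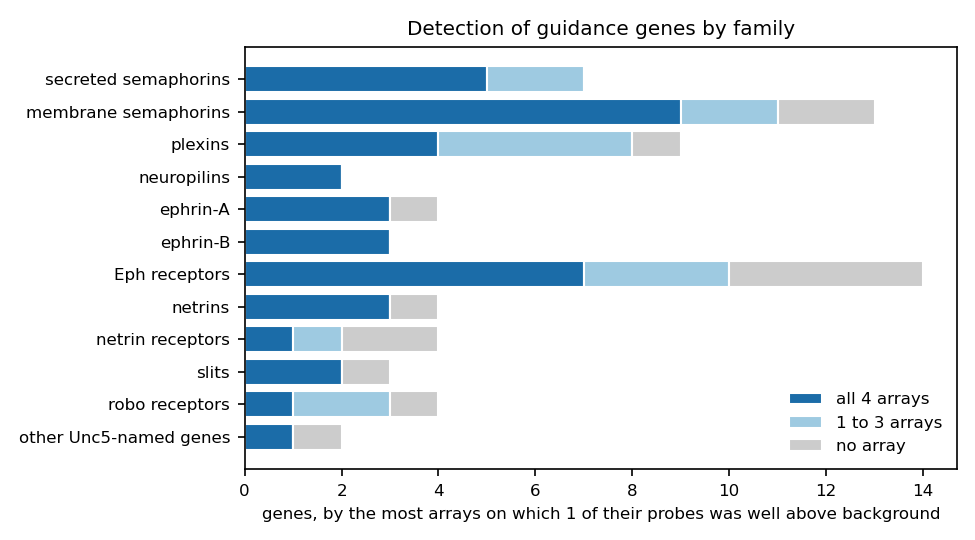
Number of genes in each guidance family (x axis) by the most arrays on which 1 of their probes was well above background. Dark bars, 41 genes in all, were on all 4 arrays, and grey bars, 14 genes in all, were on none.

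In the scanner files no guidance probe differed between the lines at over 2-fold and a limma adjusted p below 0.01, and of all probes 0% did so. At an unadjusted p below 0.05 there were 2 guidance probes, 1 of Epha4 and 1 of Robo3, against 0.855% of all probes. The Epha4 probe had passed the filter only through shGR-19, where it was higher. A plain equal-variance test at p below 0.01 and over 2-fold called 0 guidance probes and 6 of all probes. The smallest adjusted p of a guidance probe was 1.00.

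In the deposited values, 13 of the 70 kept guidance probes passed over 2-fold and an adjusted p below 0.01, which is 18.6% of them. Of these, 9 probes of 8 genes were higher in shGR-19, where 1.87% of all kept probes were, and 4 probes of 3 genes were lower, where 2.39% were. The higher genes were the ephrins Efna1, Efna4 and Efnb1, the secreted semaphorins Sema3a and Sema3f, Ntn1, and the receptors Ephb2 and Plxna2. The Plxna2 probe and the dimmer kept Sema3a probe had passed the filter only through shGR-19, the line in which they were called higher. The lower genes were Sema3g, Sema4a and Robo3. At an adjusted p below 0.01 with no limit on fold, 21 guidance probes were higher and 5 lower, against 5.53% and 6.04% of all kept probes. With 1 probe for each gene, the brightest, 15 genes were higher, 4 lower and 30 did not pass. The median log2 fold change was 0.22 over the kept guidance probes and 0.0087 over all kept probes.

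**Figure D2:**
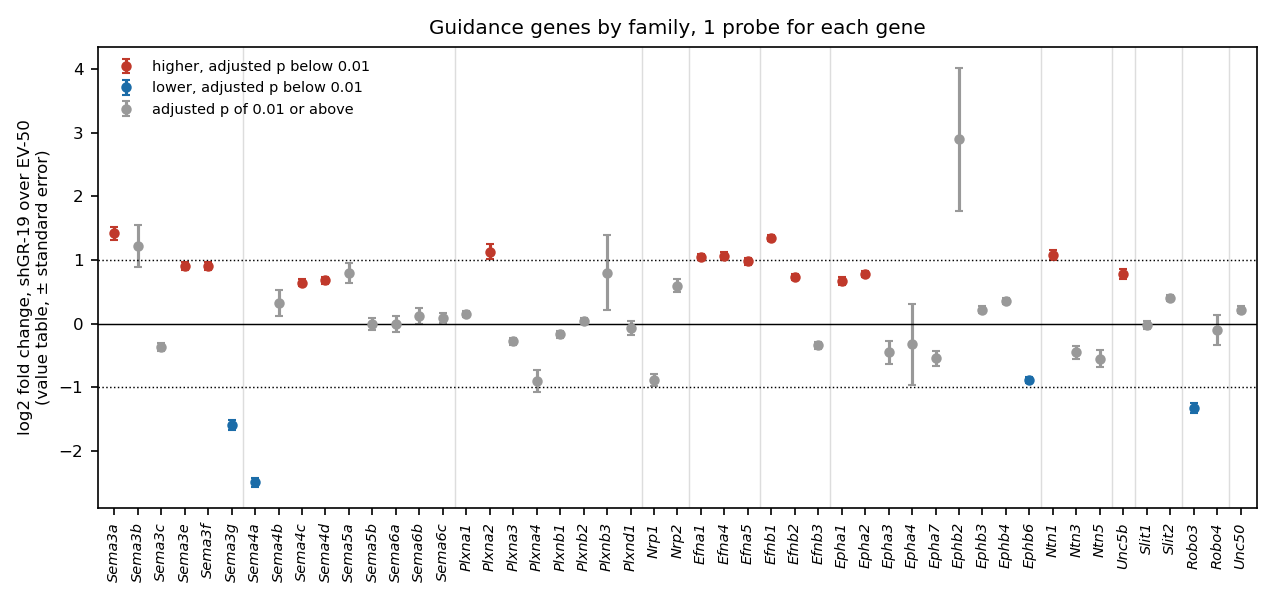
Log2 fold change of shGR-19 over EV-50 in the value table (y axis, ± standard error, 2 columns per line) for the brightest kept probe of each of 49 guidance genes, ordered by family with grey lines between families and dotted lines at 2-fold. Of these genes 15 were higher (red) and 4 lower (blue) at an adjusted p below 0.01. The ephrins Efna1, Efna4, Efna5, Efnb1 and Efnb2 lie above 0, and Efnb3 lies below 0.

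All 13 called probes had the same direction in the scanner data of replicate 2, and 9 of 13 did in those of replicate 1. Both sources were deposited for the same samples, so that the first count is not separate support. Between the replicate 2 arrays alone, with no test, the 9 higher probes differed by 0.63 to 1.55 on the log2 scale and the 4 lower ones by -2.42 to -1.44. Between the replicate 1 arrays these were -0.096 to 0.79 and -0.43 to 0.84. Over 2-fold, 13 guidance probes differed between the arrays labelled replicate 2, where 5.53% of all kept probes did, and 5 between those labelled replicate 1, where 3.57% did. Of these 5, the probes of Epha4, Nrp1, Sema4d and Plxna3 were on 2 or 3 arrays and Ntn5 on all 4, and none was called in the table. When 1 table column was left out, so that 1 line had a lone column assumed to vary like the other line, 0 guidance probes kept an adjusted p below 0.01. At an unadjusted p below 0.05 there were 38 to 47 of the 70, against 37.1% to 40.2% of all probes. The 19 genes past the adjusted p had values of 0.0288 to 0.0614 in these fits, 14 stayed below 0.05 in every one, and no log2 fold change moved by more than 0.11.

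**Figure D3:**
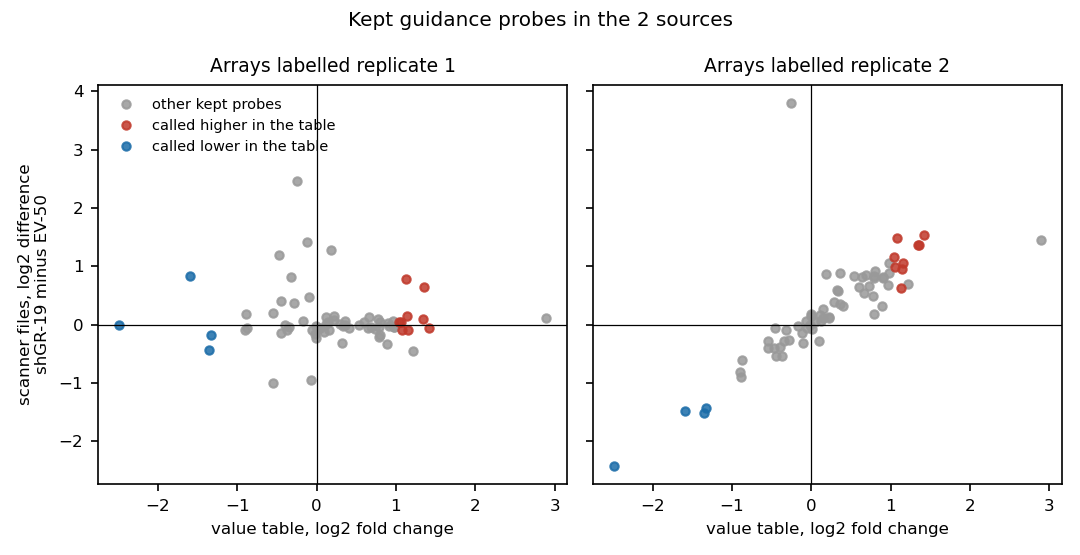
Difference between the lines in the scanner files (y axis, log2, shGR-19 minus EV-50) against the log2 fold change in the value table (x axis) for the 70 kept guidance probes, for arrays labelled replicate 1 on the left and replicate 2 on the right. The 13 probes called in the table (red higher, blue lower) stand on the same side of 0 in both sources on the right, and 9 of 13 do on the left.

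Among the ephrins, the ligands of Eph receptors, 5 of the 6 genes that passed the filter were higher in shGR-19 in the table. This count is at an adjusted p below 0.01 with no limit on fold, where 5.53% of all kept probes were higher. Efna1, Efna4 and Efnb1 were also over 2-fold. The family counts below use the same limit, under which 6.04% of all kept probes were lower. Efna1, an ephrin-A found in many epithelia, read -0.52 and -0.52 in the EV-50 columns and 0.52 and 0.53 in the shGR-19 columns, a log2 fold change of 1.04 ± 0.046 (SE, adjusted p = 0.00336, 2.06-fold). Its scanner levels were 1.17 and 0.87 for EV-50 and 1.22 and 2.03 for shGR-19. The replicate 1 arrays of the lines lay within 0.052 of each other, and the array labelled shGR-19 replicate 2 stood above the rest.

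Efna4, another lipid-anchored ephrin, read -0.57 and -0.48 against 0.48 and 0.58 in the table, a log2 fold change of 1.06 ± 0.067 (adjusted p = 0.00487, 2.08-fold). On the scanner arrays it read 0.47 and 0.51 in EV-50 and 0.52 and 1.51 in shGR-19, again with 1 array well above the other 3. Efna1, Efna4 and the lower gene Sema4a lie within the same stretch of chromosome 3, as their positions above show.

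Efnb1, which spans the membrane, had the largest change of the ephrins. It read -0.69 and -0.66 in the EV-50 columns and 0.66 and 0.67 in the shGR-19 columns, a log2 fold change of 1.35 ± 0.047 (adjusted p = 0.00271, 2.54-fold). The scanner levels were 0.065, 0.18, 0.16 and 1.54 for EV-50 replicates 1 and 2 and shGR-19 replicates 1 and 2, so that 3 arrays lay together and the array labelled shGR-19 replicate 2 lay above them.

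Efna5 and Efnb2 were higher by under 2-fold. Efna5 had a log2 fold change of 0.98 ± 0.055 (adjusted p = 0.00428) in its brightest probe and 0.89 ± 0.26 (adjusted p = 0.0729) in a dim one, whose EV-50 columns read -0.23 and -0.87. Efnb2 was higher in both probes, by 0.73 ± 0.052 (adjusted p = 0.00581) and 0.79 ± 0.047 (adjusted p = 0.00462). Efnb3 differed by -0.34 ± 0.056 and did not pass (adjusted p = 0.0227).

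Of the 9 Eph receptors that passed the filter, Epha1 and Epha2 were higher and Ephb6 lower in the table by their brightest probe, and 6 did not pass. Epha2, a kinase bound by ephrin-A1, had scanner levels of 4.52 and 4.19 in EV-50 and 4.48 and 4.996 in shGR-19, and a table log2 fold change of 0.79 ± 0.047 (adjusted p = 0.00470). Epha1 changed by 0.67 ± 0.066 (adjusted p = 0.00927). Ephb6, a receptor whose kinase domain is inactive, changed by -0.89 ± 0.048 (adjusted p = 0.00409), with scanner levels of -2.21 and -1.53 in EV-50 and -2.03 and -2.43 in shGR-19. On the scanner arrays the lines overlapped for each of these 3 genes.

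Ephb2, a receptor of ephrin-B proteins, depended on the probe. The dimmer probe read -0.53 and -0.67 against 0.53 and 0.56 in the table, a log2 fold change of 1.14 ± 0.072 (adjusted p = 0.00487, 2.21-fold). The brighter probe gave 2.89 ± 1.12 (adjusted p = 0.132), with EV-50 columns of -0.69 and -3.67 and shGR-19 columns of 0.73 and 0.69. No low value of that kind was seen on the scanner arrays, where this probe read -0.44 and -0.26 in EV-50 and -0.33 and 1.21 in shGR-19.

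Ephb3 and Ephb4, the latter the receptor of ephrin-B2, did not pass. Ephb3 changed by 0.22 ± 0.048 (adjusted p = 0.0412) and the brightest Ephb4 probe by 0.36 ± 0.048 (adjusted p = 0.0158). The probes of Epha4 did not read alike. The dimmer one had scanner levels of -6.96 and -8.15 in EV-50, not well above background, and of -4.50 and -4.34 in shGR-19, at least 1.91-fold higher (adjusted p = 1.00). It passed the filter only through shGR-19, and the table did not carry this difference, reading 0.19 and 0.084 in EV-50 and -0.084 and -0.14 in shGR-19. The probe that stands for the gene had scanner levels of -6.13 and -5.55 in EV-50 and -5.31 and -5.65 in shGR-19, a difference of 0.36 ± 0.31 with overlapping lines, and differed by -0.32 ± 0.63 in the table (adjusted p = 0.725).

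The secreted semaphorins moved in both directions in the table, with 3 genes higher, 1 lower and 2 that did not pass. Sema3a, a repellent that acts through Nrp1, was higher in both kept probes. Its brightest probe read -0.74 and -0.63 in the EV-50 columns and 0.63 and 0.84 in the shGR-19 columns, a log2 fold change of 1.42 ± 0.099 (adjusted p = 0.00562, 2.67-fold), and the other changed by 1.36 ± 0.073 (adjusted p = 0.00413). That other probe was well above background on 1 EV-50 array and passed the filter only through shGR-19. On the scanner arrays the brightest probe read -4.36 and -1.27 in EV-50 and -4.41 and 0.27 in shGR-19. There the replicate number separated the arrays more than the line did, since the arrays labelled replicate 2 were higher by 3.09 in EV-50 and 4.68 in shGR-19.

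Sema3f, which acts through Nrp2, was called in 1 of 2 probes. That probe read -0.55 and -0.60 against 0.55 and 0.61 in the table, a log2 fold change of 1.15 ± 0.054 (adjusted p = 0.00360, 2.22-fold), and -0.54 and -0.43 against -0.63 and 0.63 on the scanner arrays. The brighter probe changed by 0.91 ± 0.064 (adjusted p = 0.00569). Both probes were higher in both shGR-19 columns, and on the scanner arrays only the array labelled shGR-19 replicate 2 was above both EV-50 arrays.

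Sema3e, which binds Plxnd1 without a neuropilin, was higher by 0.90 ± 0.060 (adjusted p = 0.00532) and 0.98 ± 0.098 (adjusted p = 0.00926) in its 2 brighter probes. The remaining kept probe differed by 0.36 ± 0.12 (adjusted p = 0.0924). The scanner levels of the brightest were 0.36 and 0.42 in EV-50 and 0.39 and 1.24 in shGR-19. Plxnd1 itself differed by -0.070 ± 0.11 in the table (adjusted p = 0.669).

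Sema3g was lower. The table read 0.86 and 0.73 in EV-50 and -0.73 and -0.86 in shGR-19, a log2 fold change of -1.59 ± 0.082 (adjusted p = 0.00395, 3.01-fold). The probe was dim and was well above background on 3 of 4 scanner arrays, with levels of -6.05 and -3.16 in EV-50 and -5.21 and -4.63 in shGR-19, so that the scanner groups overlapped. Sema3b differed by 1.22 ± 0.33 (adjusted p = 0.0627) and Sema3c by -0.37 ± 0.059 (adjusted p = 0.0222).

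Sema4a, a membrane semaphorin known from immune cells and the retina, had the largest change of the called guidance probes. It read 1.29 and 1.19 in the EV-50 columns and -1.31 and -1.19 in the shGR-19 columns, a log2 fold change of -2.49 ± 0.071 (adjusted p = 0.00228, 5.62-fold). The scanner levels were -0.059 and 0.21 in EV-50 and -0.063 and -2.21 in shGR-19. The array labelled shGR-19 replicate 1 thus read as EV-50 replicate 1 did, and that labelled shGR-19 replicate 2 stood far below the others.

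Of the other 8 membrane semaphorins that passed the filter, 2 were higher by under 2-fold and 6 did not pass. Sema4d, the ligand of Plxnb1, changed by 0.68 ± 0.056 (adjusted p = 0.00706) in its brightest probe. A dim second probe on 3 of 4 arrays gave 0.18 ± 0.93 (adjusted p = 0.897). Sema4c, a ligand of Plxnb2, changed by 0.64 ± 0.061 (adjusted p = 0.00868) and in its other probe by 0.54 ± 0.065 (adjusted p = 0.0128). The smallest difference was that of Sema5b, at -0.0042 ± 0.092, and the class 6 genes Sema6a, Sema6b and Sema6c lay between -0.0097 and 0.12.

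**Figure D4:**
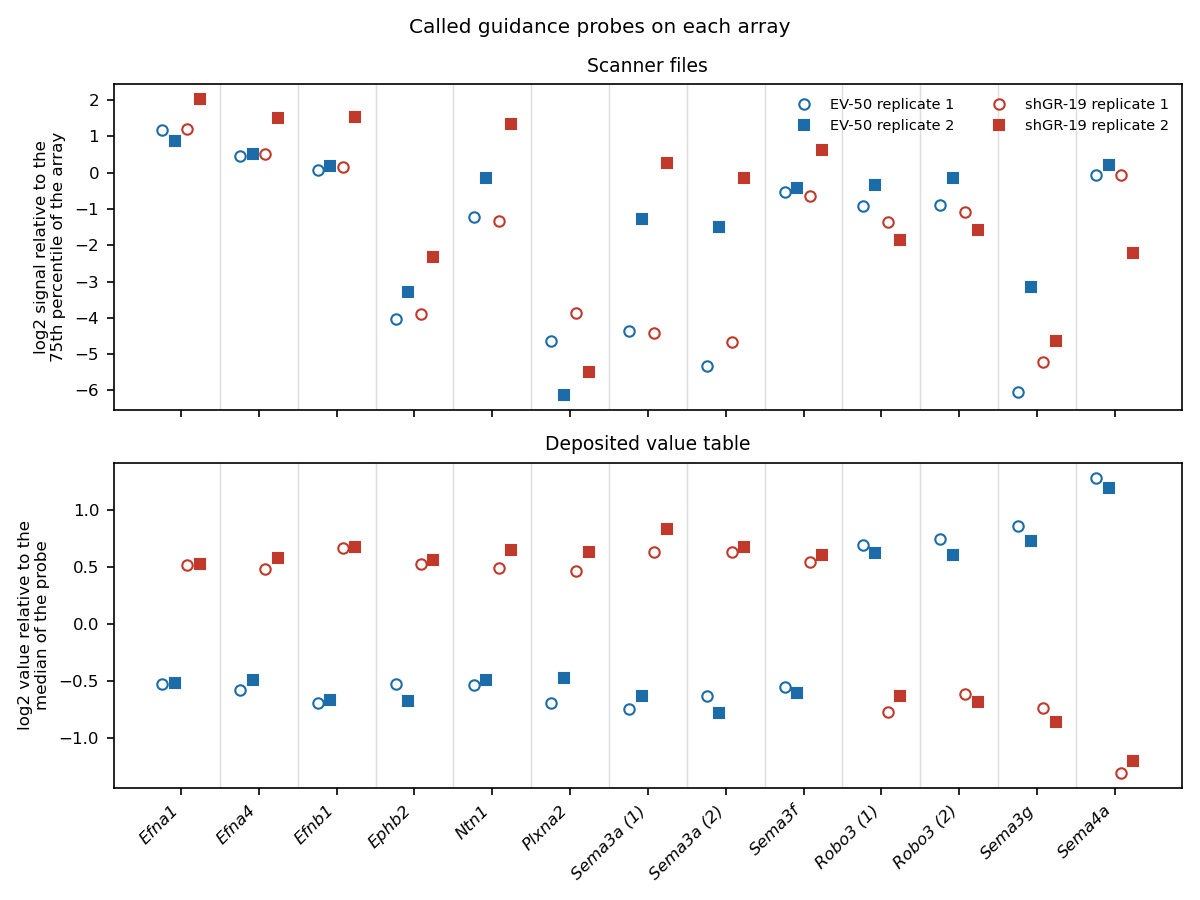
The 13 guidance probes called in the value table, on each array: scanner level (upper panel, log2 over the array's 75th percentile) and value table (lower panel, log2 over the probe's median), with EV-50 blue, shGR-19 red, replicate 1 open and replicate 2 filled. The probes were chosen from the table values, so that the separation of the lines in the lower panel follows from that choice. In the scanner files the open symbols lie close together for most probes, as for Sema4a at -0.059 and -0.063.

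Of 8 plexins, the receptors of semaphorins, that passed the filter, Plxna2 alone passed the adjusted p, and neither neuropilin did. Plxna2 read -0.69 and -0.47 in EV-50 and 0.47 and 0.63 in shGR-19 in the table, a log2 fold change of 1.13 ± 0.11 (adjusted p = 0.00931). Its scanner levels were -4.65 and -6.13 in EV-50, neither well above background, and -3.86 and -5.50 in shGR-19. The lines overlapped there (adjusted p = 1.00), and the probe passed the filter only through shGR-19. With EV-50 not well above background, the lower bound of its scanner fold lay under 2-fold. The gene's other probes were well above background on no array and were not tested. In the table the probe at chr1:196642958 went the opposite way, with 0.22 and 0.075 in EV-50 and -0.075 and -0.16 in shGR-19. That at chr1:196640289 went the same way, with -0.25 and -0.44 in EV-50 and 0.75 and 0.25 in shGR-19.

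Plxnb1 and Plxnb2, the receptors of Sema4d and Sema4c, had probes of opposite sign and small size. The probes of Plxnb1 differed by -0.17 ± 0.052 and 0.014 ± 0.060, and those of Plxnb2 by 0.042 ± 0.046 and -0.060 ± 0.099. Nrp2 differed by 0.60 ± 0.096 (adjusted p = 0.0220). Nrp1 lay just outside the limit in its brightest probe, at -0.88 ± 0.094 (adjusted p = 0.0106), with -0.40 ± 0.079 (adjusted p = 0.0331) and -0.12 ± 0.16 (adjusted p = 0.607) in its other probes.

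Of the netrins, Ntn1, the founding secreted member, was higher. Its brightest probe read -0.53 and -0.49 in EV-50 and 0.49 and 0.65 in shGR-19, a log2 fold change of 1.08 ± 0.078 (adjusted p = 0.00588, 2.11-fold), and the other changed by 0.96 ± 0.069 (adjusted p = 0.00577, 1.95-fold). On the scanner arrays the brightest read -1.23 and -0.15 in EV-50 and -1.32 and 1.34 in shGR-19, where both arrays labelled replicate 2 lay above those labelled replicate 1. Ntn3 differed by -0.45 ± 0.10 (adjusted p = 0.0426) and Ntn5 by -0.55 ± 0.14 (adjusted p = 0.0527).

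Unc5b, a netrin receptor, was the 1 receptor of its family that passed the filter. It was higher by 0.78 ± 0.076 (adjusted p = 0.00889, 1.72-fold), with scanner levels of -0.61 and 0.63 in EV-50 and -0.52 and 1.13 in shGR-19. The higher scanner levels again belonged to the arrays labelled replicate 2, whichever the line.

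Robo3, a robo family receptor known for midline crossing of axons, was lower in both probes. The second probe printed above read 0.75 and 0.61 in the EV-50 columns and -0.61 and -0.68 in the shGR-19 columns, a log2 fold change of -1.33 ± 0.074 (adjusted p = 0.00428, 2.51-fold), and the first changed by -1.36 ± 0.074 (adjusted p = 0.00416, 2.56-fold). The scanner levels of the second were -0.90 and -0.15 in EV-50 and -1.08 and -1.59 in shGR-19. The scanner levels of the lines did not overlap in either Robo3 probe, and the first probe had an unadjusted p of 0.0379 there (adjusted p = 1.00).

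The slits themselves did not pass. Slit2 differed by 0.40 ± 0.047 (adjusted p = 0.0124) and 0.29 ± 0.067 (adjusted p = 0.0466) in its 2 kept probes, and Slit1 by -0.023 ± 0.061 (adjusted p = 0.800). Robo4, known from endothelium, was dim and differed by -0.099 ± 0.24 (adjusted p = 0.776). Unc50, no netrin receptor, differed by 0.22 ± 0.053 (adjusted p = 0.0512).

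Arrays of 1 line also differed from each other at several guidance genes. At 14 kept guidance probes the array labelled replicate 2 was at least 2-fold higher than that labelled replicate 1 in both lines, against 2.55% of all kept probes, and at 2 it was lower, against 2.17%. The higher probes included both of Sema3a, 2 of Nrp1, both kept ones of Slit2 and Plxnb1, Epha1 and Unc5b. For Slit2 the brighter probe read -0.54 and 0.84 in EV-50 and -0.60 and 1.16 in shGR-19. In the table its columns read -0.19 and -0.22 in EV-50 and 0.20 and 0.19 in shGR-19, so that the difference between replicates was not carried there.

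Other genes of the pathway were read from a list of 52 co-receptors and signalling proteins, of which 40 passed the filter. In the deposited values, 2 were called higher and 0 lower, where 1.87% and 2.39% of all kept probes were. At an adjusted p below 0.01 with no limit on fold 6 were higher and 2 lower, beside 5.53% and 6.04% of all, and the median log2 fold change was 0.17. Flrt2, a membrane protein that binds Unc5 receptors, had scanner levels of -3.80 and -3.57 in EV-50 and -3.68 and -2.36 in shGR-19, and a table log2 fold change of 1.54 ± 0.076 (adjusted p = 0.00379, 2.91-fold). Farp1, a protein tied to plexin-A receptors, had levels of 2.99 and 2.50 in EV-50 and 3.07 and 3.65 in shGR-19, and changed by 1.12 ± 0.049 (adjusted p = 0.00333, 2.18-fold). The other higher genes were Dock1, Tiam1, Vav3 and the kinase Fyn, and the lower ones were Enah and the adaptor Nck1, with log2 fold changes of -0.75 and -0.74.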

How the data were processed

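The authors deposited the scanner output of 2 one-colour arrays per line, with the intensity of each spot background-subtracted by Feature Extraction 10.5.1.1 (submitters' processing notes), and log2 values of all samples from GeneSpring, centred per probe. Intensities were put on a log2 scale less the array's 75th percentile, without control and outlier spots (74 to 139 outliers per array, 0 saturated), and spots of a probe were averaged. Spots well above background numbered 23290 to 27358 per array and guidance probes 59 to 75. The small number of arrays limits precision. The test was limma 3.58.1 in R 4.3.3 (lmFit, eBayes, 2-sided), with Benjamini-Hochberg adjustment over all kept probes, applied to both sources. It was also run on simulated data whose arrays varied independently. That run therefore does not cover the correlation between same-numbered scanner arrays. A count needed over 2-fold and an adjusted p below 0.01, a single gene the p alone. Members and lists were chosen with earlier results of these data known. Named are genes called in either source, the others largest past the adjusted p in the table, genes whose probes differed, and Nr3c1, each by its brightest kept probe. A fold bound sets the bright line's mean against, per dim array, the higher of its lowest signal well above background and the probe's own. All arrays shared 1 slide and scan.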

Additional observations from a re-analysis of the deposited data

How the results depend on the processing

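In the scanner files, 0 guidance probes and 0 of the 23 named genes, Nr3c1 included, passed under quantile normalization, normexp background correction with an offset of 50, the 75th percentile over detected probes, other filters (21 genes with probes on all 4 arrays), a robust prior with a trend (statmod 1.5.0), the replicate block, a plain test or an adjusted p below 0.05, or with each array left out. With 1 probe for each gene 0 probes were called. The value table in their place gave 13 probes and 20 genes. In the table, 13 probes (9 higher, 4 lower) and 20 genes fell to 0 with all probes kept, to 0 with the replicate block and to 0 with the scanner files in place of the table, and each column left out gave 0 to 0, with 1 line then resting on a lone column. At an unadjusted p below 0.05 there were 50 of 70 guidance probes (48.4% of all probes), 48 under the block (49.4% of all) and 64 of 121 with all probes kept (41.2% of all). Other settings gave 9 to 13 probes. The replicate numbers come from the labels and pair no material known from them: deviations of same-numbered samples correlated at 0.574 across probes in the scanner files and 0.0553 in the table. With columns centred on their median, Plxna2 (limma adjusted p = 0.0104) and Epha1 (adjusted p = 0.0107) no longer passed.

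Leaving out arrays, singly or by replicate number, turned the sign of the scanner difference of several genes. The ranges on the log2 scale were -0.63 to 2.03 for Ntn1, -0.11 to 1.53 for Plxna2, -1.59 to 3.09 for Sema3a, -0.025 to 0.81 for Sema3f, -1.77 to 1.13 for Sema3g, -0.24 to 1.09 for Efna5, -0.0023 to 0.85 for Sema3e, -0.90 to 0.18 for Ephb6, -0.038 to 0.80 for Epha2, -0.53 to 1.12 for Unc5b, -0.45 to 1.04 for Efnb2, -0.13 to 0.94 for Sema4d, -0.80 to 1.47 for Epha1, -0.52 to 1.28 for Sema4c, -0.83 to 0.88 for Plxnb1 and -0.12 to 0.11 for Plxnb2. The difference of Plxnb1 was 0.023 in the scanner files and -0.17 in the table, and that of Plxnb2 -0.0052 and 0.042, with 0.014 under quantile normalization and 0.028 under normexp. The cause was not tested.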

Other observations

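The Sema3e probe at chr5:14236745-14236804 read differently from the other Sema3e probes. It was well above background on none of the 4 scanner arrays, with levels of -7.01 and -8.18 in EV-50 and of -8.16 and -8.37 in shGR-19. The value table gave it 1.04 and 0.92 in EV-50 and -0.92 and -0.94 in shGR-19, with the opposite sign to the 3 kept probes of the gene. It did not pass the filter and was not tested.

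RefSeq promoter windows (GRCm38.p6 names, each around a gene's start) were found for 60 of the 69 gene names, in 75 windows. The inverted GR element core GAACANNNTGTTC was in 0 of these and in 0.0578% of all 32851 promoters. The ETS core CCGGAAG, searched on both strands as the first was, stood in 3 windows (4%), those of Ephb6, Plxnb1 and Unc50, and in 8.86% of all. A match is a run of letters only, and its absence says nothing of the factor.

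Within 500 kb of Efna1 in mm9 lay 58 other kept probes of 42 genes, with a median table log2 fold change of -0.093. Of these, 2 were called higher, Efna4 among them, and 2 lower. The window of Efna4 held 57 other kept probes of 41 genes, with a median of -0.026. Of those, 2 were called higher, Efna1 among them, and 2 lower. Around Sema3g, of 41 kept probes 6 were higher and 3 lower at an adjusted p below 0.01 by limma. Around Sema4a, of 58 kept probes 4 were higher and 2 lower, and around Sema3f, of 50 kept probes 0 were higher and 7 lower. Around Ntn1 and Sema3a 1 probe each was lower, and around Efnb1, Ephb2, Plxna2 and Robo3, with 3 to 17 kept probes, 0 passed in either direction.

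The kept guidance probes had a median GC content of 43.3% where called higher, 43.3% where called lower and 45% where not called.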
